A study of Mus musculus with 16 samples.

Results

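The 9 genes described here, Olig1, Olig2, Sox10, Pdgfra, Cspg4, Mbp, Mog, Mag and Cnp, are used as markers of oligodendrocytes, the glial cells that make myelin, and of their precursors. They were taken by name out of 55385 genes, and all 9 were found in the tables. RNA was sequenced from primary hippocampal cultures of newborn C57Bl/6N mice in 16 libraries, 4 for each combination of an shRNA and a treatment. Cultures labelled shControl (Control-shRNA) carried a control hairpin, and those labelled shDnmt3a1 (Dnmt3a1-shRNA) carried a hairpin against Dnmt3a1, the long isoform of the DNA methyltransferase Dnmt3a. Cultures were sampled at baseline (0 h) or after 4 h of bicuculline, a blocker of GABA-A receptors that sets off bursts of action potentials in the network. All groups received a recombinant adeno-associated virus with the hairpin under the U6 promoter and GFP under a chicken β-actin promoter. The study used a viral serotype chosen for its preference for neurons, while neither promoter restricts expression to them, and which cells of the dish were infected was not measured here. Each of the 4 libraries in a group came from its own preparation of cells.

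Oligodendrocytes arise from precursors that carry the receptor Pdgfra and the proteoglycan Cspg4 (NG2) on their surface. Olig1, Olig2 and Sox10 are transcription factors of the lineage, and Sox10 switches on myelin genes as precursors mature. Cnp, Mbp, Mag and Mog are proteins of myelin or of the cells that wrap it, and Mog is among the last to appear. Several of these genes are also used elsewhere: Olig1 and Olig2 in neural progenitors and in some astrocytes, Pdgfra in fibroblasts, Cspg4 in pericytes, and longer golli transcripts of Mbp in neurons.

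The libraries held between 28912697 and 29586355 estimated counts, of which mitochondrial genes took 2.73% to 6.60%. Dnmt3a, the targeted gene, stood at 312 ± 13.8 CPM (counts scaled to the library total and by TMM, edgeR's factor for differences in library composition, mean ± SD, n = 4) in Control-shRNA baseline and 44.5 ± 3.66 in Dnmt3a1-shRNA baseline. With bicuculline the levels were 327 ± 11.8 and 45.3 ± 1.72 CPM. The knockdown was therefore seen in both conditions.

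The label of the gene set was checked against the markers that define the lineage, and the data went against it. Sox10, a transcription factor of the lineage, had 1 count in 5 libraries and 0 in the other 11, 5 counts in all. A count of 0 allows up to 3 counts, or 0.0913 to 0.119 CPM on the same TMM scale, and such limits cover counting error only. Mag, a myelin adhesion protein, had 0 to 4 counts per library.

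Further markers of the lineage were as low. Gpr17, a receptor of committed precursors, had at most 2 counts in a library. Opalin, a marker of myelinating cells, had at most 5, and the myelin structural gene Mobp had at most 8. Myrf, a regulator of myelin genes, averaged 0.259 TPM, the deposited level that is scaled for transcript length and library total. Of 24 genes listed as mature oligodendrocyte and myelin genes, 16 averaged under 1 CPM and 10 did not pass edgeR's filter on low counts. Sox10 and Mag did not pass either, so 7 of the 9 genes were tested. Because the defining markers were at or near 0 while other genes of the set were abundant, the genes are described below one by one and not as a measure of oligodendrocytes.

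**Figure D1:**
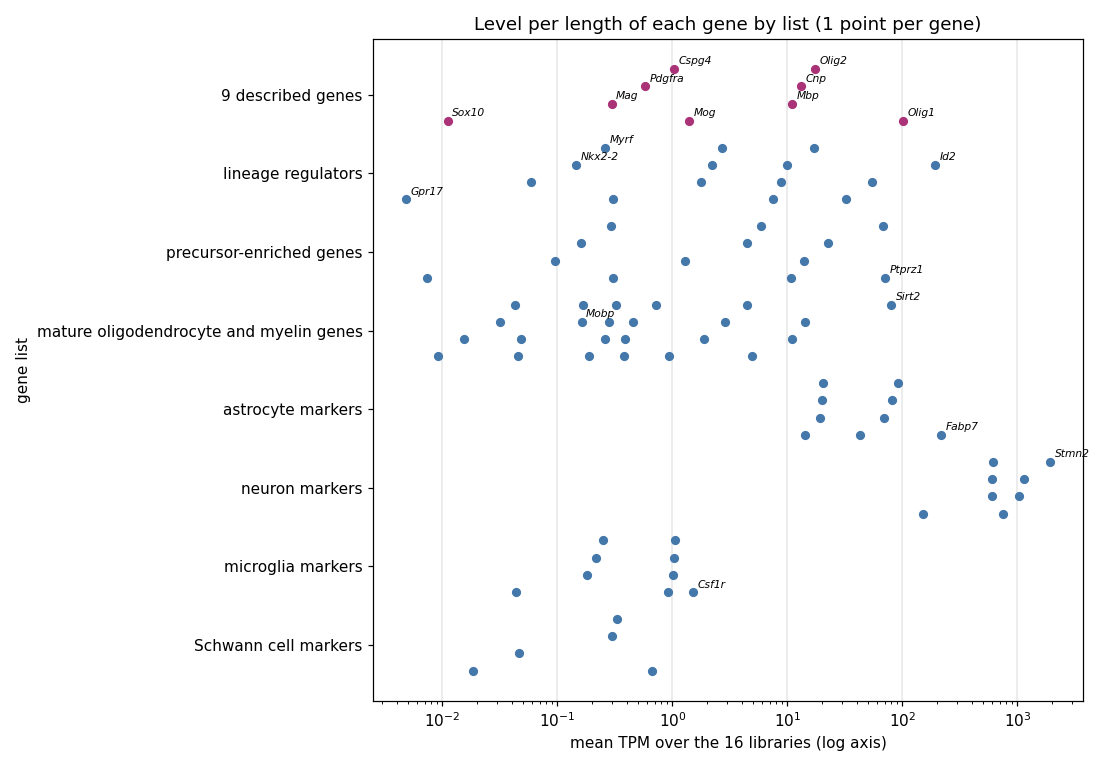
Mean TPM over the 16 libraries (log axis) of each gene, 1 point per gene, for the 9 described genes (purple) and 7 marker lists (blue). Olig1 lies at 101 TPM and Sox10 at 0.0111 TPM, and most mature oligodendrocyte genes lie below 1 TPM, unlike the astrocyte and neuron markers.

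On the length-scaled TPM scale the 9 genes spanned 4 tiers. Olig1 averaged 101 TPM (55.96 to 147.7 over the libraries) and lay above 89.8% of the tested genes. Olig2 (17.6 TPM, range 12.4 to 22.8), Cnp (13.2 TPM, range 8.20 to 16.4) and Mbp (11.0 TPM, range 5.75 to 17.7) formed the next tier, and their ranges overlapped. Mog (1.39 TPM), Cspg4 (1.03 TPM) and Pdgfra (0.579 TPM) followed, again with overlapping ranges. Mag (0.296 TPM, from at most 4 counts) and Sox10 (0.0111 TPM) were lowest.

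The proportions between genes were uneven. The mean TPM of Olig1 was 5.74 times that of Olig2, 9.15 times that of Mbp and 174 times that of Pdgfra. The tables give 1 value per gene, summed over the transcripts of a gene, of which 16 are annotated for Mbp, so golli and myelin forms of Mbp were not told apart.

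Olig2 and Olig1 are neighbours on chromosome 16, both on the plus strand, with 41094 bases between the end of Olig2 (91225457 to 91228677) and the start of Olig1 (91269772 to 91271933, GRCm38). Mog lies on the minus strand of chromosome 17 (37010743 to 37023398). Because the study lowered a DNA methyltransferase, whose main target is the C of CG, promoter sequences were searched for CG dinucleotides. RefSeq promoter entries (GRCm38.p6), matched by symbol, were used for 6 of the 9 genes. The promoter of Mbp was not searched, so its absence here does not mean that it lacks an entry. Each window is the 250 bases before the transcription start. Olig2 and Mog are shown, from the high and low end of CG content, where a window of Mag held as few CG as Mog. Mog was also the gene of the set that changed with bicuculline, and it did not pass the knockdown comparisons. Capitals mark CG dinucleotides, and the Olig2 sequence stops before the start that GENCODE gives for the gene.
Olig2, chr16:91225300-91225456, plus strand: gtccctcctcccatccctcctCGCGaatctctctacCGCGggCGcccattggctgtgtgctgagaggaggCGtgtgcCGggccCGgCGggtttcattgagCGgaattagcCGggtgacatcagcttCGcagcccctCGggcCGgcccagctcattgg
Mog, chr17:37023399-37023648, minus strand: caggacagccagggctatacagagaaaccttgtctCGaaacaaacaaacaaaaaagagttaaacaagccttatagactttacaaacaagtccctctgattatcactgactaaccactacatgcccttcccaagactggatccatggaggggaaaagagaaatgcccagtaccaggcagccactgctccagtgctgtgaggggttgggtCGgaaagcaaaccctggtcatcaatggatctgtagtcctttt

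The 250-base window of Olig2 held 22 CG dinucleotides, more than 85.2% of the 32851 windows of the table, and the Mog window held 2, more than 18.8% of them. The median window held 6. Cnp (13 CG) and Cspg4 (12 CG) also lay above the median, while Pdgfra (4 CG) and the 3 windows of Mag (2, 3 and 3 CG) lay below it. DNA methylation itself was not measured in these libraries.

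The windows were also searched on both strands for the letters ACAAAG and ACAATG (Sox factors), CANNTG (E-box, bound by Olig factors), TGANTCA (Fos and Jun) and TGACGTCA (the cAMP response element). None of these motifs contains another. They occur in 16.5%, 10.7%, 66.2%, 6.75% and 1.55% of all windows. The Mog window held none of them. The Olig2 window held 1 match to ACAATG, which lies past the printed stretch and so after the start that GENCODE gives. The Cnp window held 1 match each to ACAAAG and CANNTG, and that of Pdgfra 1 match to CANNTG. Of the 3 Mag windows, 2 held 1 match each to ACAAAG, and 2 held CANNTG, with 2 matches and 1 match. The windows with ACAAAG overlap, so the same site may be counted in both. The remaining Mag window lies within the gene as GENCODE places it. No window of the 6 genes held TGANTCA or TGACGTCA. Such matches describe letters only.

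The bicuculline response addresses which genes follow 4 h of network bursting. Mog was the 1 gene of the 7 tested that passed, and it fell with both shRNAs. In Control-shRNA, replicates 1 to 4 of Mog, a surface protein of the outermost myelin layer, had 1.19, 1.27, 1.43 and 1.36 CPM at baseline. With bicuculline they had 0.707, 0.639, 0.618 and 0.982 CPM. Every baseline library of Control-shRNA was thus above every bicuculline library.

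The Mog mean was 1.31 ± 0.108 CPM at baseline and 0.737 ± 0.168 CPM with bicuculline (SD, n = 4). Its log2 fold change was -0.83 (SE 0.24, edgeR quasi-likelihood test, Benjamini-Hochberg adjusted p = 0.0105 over 17222 genes), or 1.78-fold lower. Calls required an adjusted p below 0.05 together with an absolute log2 fold change above 0.5. In this comparison 21.9% of all tested genes were called, 10.8% higher and 11.1% lower, and in 39.7% the libraries of the groups did not overlap. The 1 of 7 called is no larger a share than that background.

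In Dnmt3a1-shRNA, Mog stood at 1.48, 1.24, 1.02 and 2.32 CPM at baseline and at 0.713, 0.926, 0.962 and 0.886 CPM with bicuculline. The groups again did not overlap, but baseline replicate 4 stood well above the other baseline libraries and replicate 3 lay close to the bicuculline libraries. The mean fell from 1.51 ± 0.571 to 0.872 ± 0.111 CPM, a log2 fold change of -0.79 (SE 0.24, adjusted p = 0.0110). Here 25.8% of the tested genes were called, 12.6% higher and 13.2% lower, and 40.4% did not overlap.

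Without Dnmt3a1-shRNA baseline replicate 4, the Mog fold change in Dnmt3a1-shRNA was -0.51 with an adjusted p of 0.060, and the call was lost. Mog had only 18 to 69 counts per library, and Gm22388, a small RNA gene inside it on the other strand, had up to 7. In bulk RNA, fewer cells of a type and less RNA per cell cannot be told apart.

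**Figure D2:**
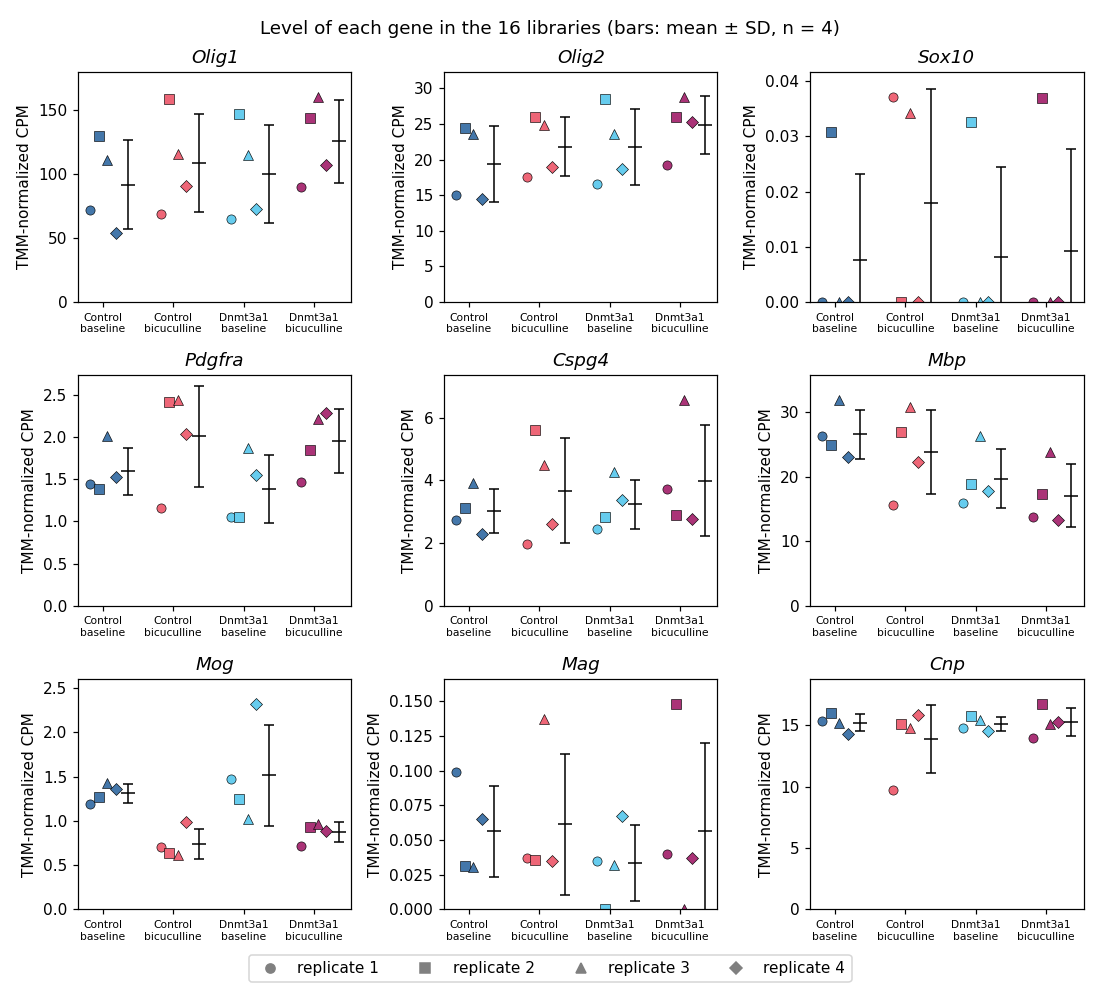
TMM-normalized CPM of the 9 genes in each library (symbols give the replicate number), with mean ± SD of the 4 libraries of a group, on axes that start at 0. For Mog the bicuculline libraries lie below the baseline libraries with both shRNAs, and Sox10 and Mag rest on 0 to 4 counts.

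The transcription factors did not pass the test. Olig1 in replicates 1 to 4 stood at 72.0, 129.5, 110.4 and 53.6 CPM in Control-shRNA baseline and at 68.9, 158.2, 115.5 and 90.8 CPM with bicuculline. In Dnmt3a1-shRNA it stood at 64.7, 146.8, 114.9 and 72.5 CPM at baseline and at 89.9, 143.6, 160.1 and 106.8 CPM with bicuculline. The groups overlapped over most of their ranges, since replicates of one group differed more than the groups did. The log2 fold change with bicuculline was 0.25 (SE 0.30, adjusted p = 0.561) in Control-shRNA and 0.33 (SE 0.30, adjusted p = 0.413) in Dnmt3a1-shRNA. Over the other settings and the fits that leave out 1 library, the lowest adjusted p was 0.0633 in Control-shRNA. In Dnmt3a1-shRNA it was 0.00793, at a change that missed the fold threshold of 0.5, so Olig1 was not called.

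Olig2, the factor that specifies the lineage, ranged from 14.5 to 28.8 CPM over all libraries. Its log2 fold change was 0.17 (SE 0.20, adjusted p = 0.531) in Control-shRNA and 0.19 (SE 0.20, adjusted p = 0.471) in Dnmt3a1-shRNA. For Sox10 an exact two-sided permutation test of log2 CPM gave p = 0.171 and p = 0.457, where 4 libraries against 4 can go no lower than 0.0286. At 0 or 1 count, no difference in Sox10 was detectable at this depth.

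The precursor surface genes had higher means with bicuculline but did not pass. Pdgfra, the receptor for PDGF-A, had 1.45, 1.39, 2.01 and 1.52 CPM in Control-shRNA baseline and 1.15, 2.41, 2.44 and 2.04 CPM with bicuculline. In Dnmt3a1-shRNA it had 1.05, 1.05, 1.87 and 1.55 CPM at baseline and 1.47, 1.85, 2.21 and 2.29 CPM with bicuculline. In Dnmt3a1-shRNA each bicuculline library was above the baseline library of the same replicate number, whereas in Control-shRNA replicate 1 was lower. The numbers were not taken to pair libraries in the Dnmt3a1-shRNA comparison, so this order is a description. The log2 fold changes were 0.34 (SE 0.24, adjusted p = 0.293) and 0.50 (SE 0.25, adjusted p = 0.112). Without Dnmt3a1-shRNA baseline replicate 3, the latter was 0.68 with an adjusted p of 0.0423, which is a call.

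Cspg4 ranged from 1.97 to 6.56 CPM, and its fold changes were 0.28 (SE 0.32, adjusted p = 0.516) and 0.30 (SE 0.31, adjusted p = 0.468). Its spread was the widest of the 7 tested genes with bicuculline, with coefficients of variation of 45.8% and 44.4%.

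Of the other myelin genes, Mbp, which compacts the myelin membrane, had a log2 fold change with bicuculline of -0.15 (SE 0.21, adjusted p = 0.597) in Control-shRNA and -0.21 (SE 0.21, adjusted p = 0.447) in Dnmt3a1-shRNA. Cnp, an enzyme of the oligodendrocyte cytoplasm that is made early in the lineage, was the steadiest of the 7 at baseline, at 15.2 ± 0.707 CPM in Control-shRNA and 15.1 ± 0.579 CPM in Dnmt3a1-shRNA. Its fold changes were -0.13 (SE 0.11, adjusted p = 0.382) and 0.01 (SE 0.11, adjusted p = 0.941).

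In Control-shRNA with bicuculline, Cnp replicate 1 lay at 9.71 CPM and the other 3 libraries between 14.8 and 15.9 CPM. Cnp shares chromosome 11, 100582818 to 100591729, with Dnajc7 on the other strand, which reached 3780 counts. The strand setting of the counting is not given in the sources used here, so the value of Cnp is uncertain. Over the 7 tested genes the median log2 fold change was 0.17 and 0.19, against 0.01 and -0.01 over all tested genes.

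**Figure D3:**
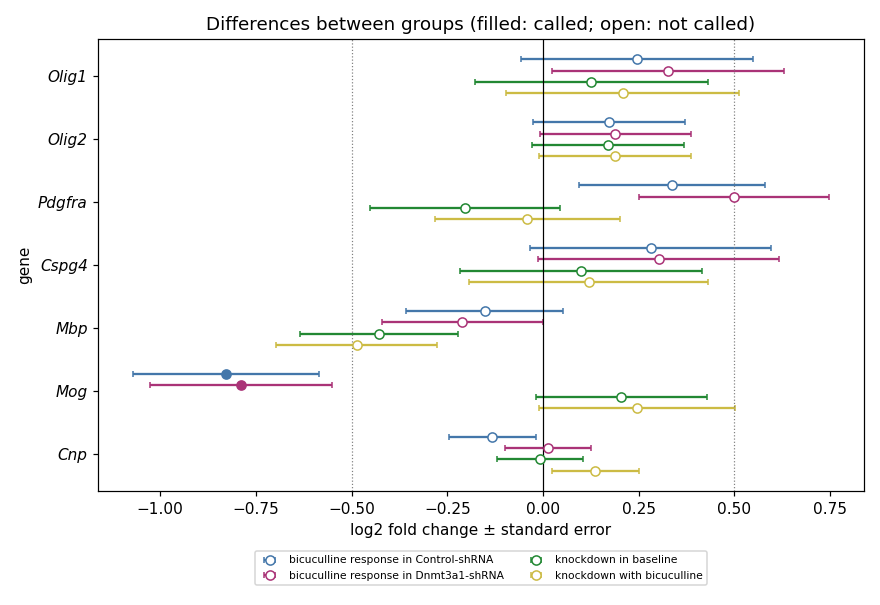
Log2 fold change with its standard error for the 7 tested genes in 4 comparisons (edgeR), with dotted lines at -0.5 and 0.5. The 2 filled points, Mog with bicuculline at -0.83 and -0.79, are the only calls, and the knockdown values of Mbp lie at -0.43 and -0.49.

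The knockdown comparison asks which genes differ when Dnmt3a1 is lowered. None of the 7 tested genes passed it in edgeR, at baseline, where 5.83% of all tested genes were called, or with bicuculline, where 5.89% were. At an unadjusted p below 0.05 there were 0 of the 7 at baseline and 1 with bicuculline, against 28.8% and 31.2% of all tested genes. DESeq2 and voom with limma called 0 of the 7 as well.

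Mbp came closest to a call. At baseline it stood at 26.3, 24.9, 31.9 and 23.1 CPM in Control-shRNA and at 15.9, 18.9, 26.3 and 17.8 CPM in Dnmt3a1-shRNA. With bicuculline it stood at 15.6, 26.9, 30.8 and 22.3 CPM in Control-shRNA and at 13.7, 17.2, 23.9 and 13.3 CPM in Dnmt3a1-shRNA. In both conditions every Dnmt3a1-shRNA library was below the Control-shRNA library of the same replicate number, while the groups overlapped. The numbers were taken to pair libraries at baseline but not with bicuculline.

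The Mbp mean was 26.6 ± 3.79 against 19.7 ± 4.54 CPM at baseline, a log2 fold change of -0.43 (SE 0.21, adjusted p = 0.182). With bicuculline the mean was 23.9 ± 6.54 against 17.0 ± 4.90 CPM, an edgeR log2 fold change of -0.49 (SE 0.21, adjusted p = 0.122). With the replicate number as a block at baseline, the edgeR value was -0.45 with an adjusted p of 0.00367. That passed the p threshold but not the fold threshold of 0.5. The numbers were taken to pair libraries there from correlations and not from a label. For the knockdown under bicuculline, the 8 other settings gave -0.56 to -0.47 and no call. The lowest adjusted p there was 0.0022, fits that leave out 1 library included, again at a change that missed the fold threshold. Leaving out 1 library gave a call with bicuculline in 2 cases, -0.65 (adjusted p = 0.0317) without Control-shRNA bicuculline replicate 1 and -0.70 (adjusted p = 0.0289) without Dnmt3a1-shRNA bicuculline replicate 3.

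The other 6 tested genes differed less than Mbp between the shRNAs. Olig1 had a log2 fold change of 0.13 (SE 0.30) at baseline and 0.21 (SE 0.30) with bicuculline, and Olig2 of 0.17 (SE 0.20) and 0.19 (SE 0.20). Mog had 0.20 (SE 0.22) and 0.24 (SE 0.26), Cspg4 0.10 (SE 0.32) and 0.12 (SE 0.31), and Pdgfra -0.20 (SE 0.25) and -0.04 (SE 0.24). Cnp had -0.01 (SE 0.11) and 0.14 (SE 0.11). Their adjusted p-values lay between 0.450 and 0.973. The median over the 7 genes was 0.10 at baseline and 0.14 with bicuculline, against 0.01 and -0.01 over all tested genes. Sox10 gave exact permutation p-values of 0.514 and 0.943, and for Mag the lowest exact permutation p over the 4 comparisons was 0.457.

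The interaction, which asks whether the bicuculline response differed between the shRNAs, was called for 0% of all tested genes by edgeR, and for 0 of the 7 genes. At an unadjusted p below 0.05 it had 852 genes and 0 of the 7. DESeq2 called 18 genes and voom with limma 0. The interaction estimate for Mog was 0.04 (SE 0.34) and for Pdgfra 0.16 (SE 0.35).

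Levels also differed between replicate numbers. Olig1 and Olig2 were higher in replicates 2 and 3 than in replicates 1 and 4 in all 4 groups, and Mbp was highest in replicate 3 in all 4 groups. Mog had no such order, and its highest library was replicate 3 or replicate 4 in 2 groups each.

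After each library was set against the mean of its group, Olig1 and Olig2 moved together over the 16 libraries, with Pearson's r of 0.956 on log2 CPM. The r between Cspg4 and Mbp was 0.861 and that between Pdgfra and Mbp 0.751, while Mog had an r between -0.285 and 0.0695 with the other 6 genes. These correlations are descriptions of 16 libraries, in which libraries of the same number may not be independent, so they carry no p.

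Library measures moved with the same numbers. The mitochondrial share was lowest in replicate 3 (2.73% to 3.58%) and highest in replicate 1 (4.75% to 6.60%) in each group. The part of the mitochondrial share in these differences was not tested.

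**Figure D4:**
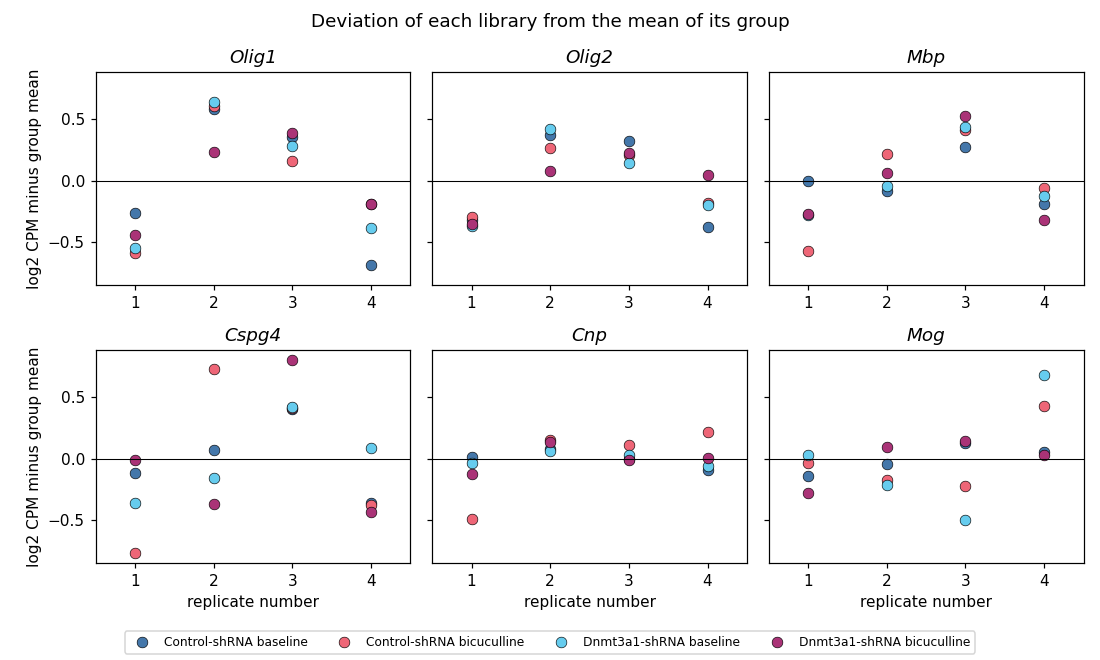
Log2 CPM minus the mean of the group for 6 genes in each library, by replicate number, with colours for the 4 groups. Olig1 and Olig2 lie above 0 in replicates 2 and 3 and Mbp in replicate 3 with every group, while Mog shows no shared order.

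Markers of other cell types moved with several of the genes within groups. Over the same 16 libraries, the 9 astrocyte markers had a median r of 0.882 with Olig1 (range -0.226 to 0.946) and the 8 neuron markers a median of -0.581. For Mbp the astrocyte median was 0.821 and the neuron median -0.388 (range -0.690 to 0.0252), and for Mog they were -0.227 and 0.138. Pdgfra, which fibroblasts also carry, had a median r of 0.805 with the 6 fibroblast markers (range 0.722 to 0.831) and of 0.694 with the astrocyte markers. The fibroblast medians of Mbp (0.755) and Cspg4 (0.70) were similar.

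The genes closest to Olig1 among those of at least 5 CPM were Bcan (r = 0.991), Mlc1 (0.975), Acot11 (0.975), Metrn (0.972) and Acsbg1 (0.972). Bcan codes for the matrix proteoglycan brevican and Mlc1 for a membrane protein of astrocytes. Closest to Mbp were Far2 (r = 0.969), Mal2 (0.968), Sel1l3 (0.952), Cacng3 (0.950) and Slc6a7 (0.949). Slc6a7 is a proline transporter of neurons and Cacng3 an auxiliary subunit of AMPA receptors. Among the closest to Pdgfra were 5730409E04Rik (r = 0.888), Tacr1 (0.882), Plec (0.877) and Cacna2d2 (0.863).

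The marker lists differed in summed level, which is not a measure of cell numbers. The 8 neuron markers summed to 6330 to 7460 TPM per library and the 9 astrocyte markers to 370 to 806 TPM. The 6 fibroblast markers summed to 36.5 to 90.9 TPM, led by Dcn at 41.8 TPM, the 11 pericyte and endothelial markers to 11.2 to 19.6 TPM, the 9 microglia markers to 3.81 to 9.45 TPM and the 5 Schwann cell markers to 0.612 to 1.89 TPM.

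The astrocyte sum ranged from 432 to 638 TPM in Control-shRNA baseline, 370 to 597 TPM with bicuculline, 474 to 806 TPM in Dnmt3a1-shRNA baseline and 532 to 756 TPM with bicuculline. Of the astrocyte markers, Fabp7 was higher with the knockdown (log2 fold change 0.57 at baseline and 0.66 with bicuculline) and Sox9, also an upstream factor of the glial lineage, rose with bicuculline (1.09 and 1.08). The part of these cells in the values of the 9 genes was not tested.

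In the lists of neuron, microglia, fibroblast, pericyte and endothelial, Schwann cell and proliferation genes, 7 of 35 tested genes were called with bicuculline in Control-shRNA and 8 of 35 in Dnmt3a1-shRNA, shares near those of all tested genes. Csf1r, a microglial receptor, was lower with the knockdown (-0.66 at baseline and -0.75 with bicuculline). Pdgfrb, a pericyte receptor, was higher with bicuculline in Control-shRNA (0.56) and with the knockdown at baseline (0.75). Col1a2 rose with bicuculline with both shRNAs (0.55 and 0.56) and Col6a3 in Dnmt3a1-shRNA (0.61), while Lum was higher with the knockdown under bicuculline (0.67). Of the Schwann cell list Prx rose (0.65 and 0.64), and of 4 tested proliferation genes Pcna rose (0.76 and 0.95). Nefl rose (1.25 and 1.39) and Tubb3 fell (-0.77 and -1.12) among the neuron markers, and Tubb3 was higher with the knockdown at baseline (0.51). Itgam, Abcc9 and Flt1, each with a mean under 1 CPM, made up the other calls of these lists and were named after their values were seen.

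Other genes of the lineage were taken from lists that were chosen with earlier results of these data known. Of 15 lineage regulators 12 were tested. With bicuculline in Control-shRNA 1 was higher and 1 lower, and in Dnmt3a1-shRNA 3 were higher and 1 lower. Of all tested genes 21.9% and 25.8% were called in these comparisons. Id2, which holds back differentiation of precursors, rose from 68.3 ± 3.11 to 162 ± 29.2 CPM in Control-shRNA (log2 fold change 1.25, SE 0.11, adjusted p = 1.01e-07) and from 75.7 ± 3.09 to 149 ± 21.1 CPM in Dnmt3a1-shRNA (0.97, SE 0.11). Hes5, a Notch target that also holds back maturation, fell from 1.20 ± 0.278 to 0.640 ± 0.0860 CPM (-0.90, SE 0.24, adjusted p = 0.00503) and from 1.43 ± 0.373 to 0.954 ± 0.168 CPM (-0.58, SE 0.22, adjusted p = 0.0413).

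Zfp536, a zinc finger factor, also rose in Dnmt3a1-shRNA (0.52, SE 0.13, adjusted p = 0.00382), and was named after its value was seen. None of the 12 passed the knockdown comparisons in edgeR, where 5.83% and 5.89% of all tested genes were called.

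Of 13 precursor-enriched genes 10 were tested. Over all tested genes, 21.9% and 25.8% were called with bicuculline, and 5.83% and 5.89% with the knockdown. With bicuculline none was called in Control-shRNA, and Pcdh15, a protocadherin, rose in Dnmt3a1-shRNA from 6.04 ± 1.04 to 10.2 ± 0.973 CPM (0.75, SE 0.13, adjusted p = 0.000121). Cacng4, an auxiliary subunit of AMPA receptors that neurons also use, was higher with the knockdown at baseline, at 136 ± 13.7 against 95.0 ± 7.99 CPM (0.52, SE 0.10, adjusted p = 0.00142), and none was called with the knockdown under bicuculline.

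Of the 24 mature oligodendrocyte and myelin genes 14 were tested, and the calls went in both directions. With bicuculline 1 was higher and 2 lower in Control-shRNA, and 2 were higher and 3 lower in Dnmt3a1-shRNA. The shares of all tested genes called in these comparisons were 21.9% and 25.8%. Tmem88b rose from 0.980 ± 0.204 to 2.64 ± 0.302 CPM (1.43, SE 0.25, adjusted p = 0.000158) and from 0.890 ± 0.327 to 2.28 ± 0.646 CPM (1.35, SE 0.25, adjusted p = 0.000285). Anln, an actin-binding protein of dividing cells and of myelin, fell from 12.1 ± 1.98 to 8.21 ± 1.91 CPM (-0.56) and from 10.8 ± 2.01 to 7.57 ± 0.786 CPM (-0.52).

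Pllp, the myelin protein plasmolipin, fell in Dnmt3a1-shRNA (-0.67, adjusted p = 0.0321). The other calls had means under 1 CPM and were named after their values were seen: Ugt8a, which makes the myelin lipid galactosylceramide, fell (-0.74 and -1.34) and Ermn rose in Dnmt3a1-shRNA (0.97). The median log2 fold change of the 14 genes was -0.04 and -0.07 with bicuculline. None passed the knockdown comparisons, where 5.83% and 5.89% of all tested genes were called. Sirt2, a deacetylase present in neurons as well, was the most abundant gene of the list at 79.8 TPM.

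Among growth signals for precursors, 9 of 10 genes were tested, and bicuculline raised 4 and lowered 0 of them with each shRNA. Of all tested genes 10.8% and 12.6% were called higher, and the median of the list was 0.47 and 0.58. Because the list was chosen with earlier results of these data known, its shares are descriptions and no test of enrichment. Igf1, a survival factor, rose from 21.3 ± 3.42 to 45.2 ± 10.6 CPM in Control-shRNA (1.08, SE 0.17, adjusted p = 6.15e-05) and from 20.3 ± 3.43 to 45.4 ± 9.24 CPM in Dnmt3a1-shRNA (1.16, SE 0.17). Pdgfb, a PDGF chain, rose by 0.65 and 0.58, and Nrg1, a ligand of ErbB receptors, by 0.55 and 0.72.

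Cntf rose by 1.19 and 0.98 at a mean of 0.567 CPM, and was named after its values were seen. Nrg1 was also higher with the knockdown under bicuculline (0.60, SE 0.13, adjusted p = 0.00355), the 1 call of the list in the knockdown comparisons. Of all tested genes 5.83% and 5.89% were called in those comparisons. Pdgfa, the main ligand of the Pdgfra receptor, was the most abundant of the list at 74.1 TPM. Ligand and receptor thus differed in level, as Pdgfra averaged 0.579 TPM.

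Neurons carry receptors and ligands through which myelin limits axon growth, and all 8 such genes in the tables were tested. With bicuculline 2 were higher and 1 lower with each shRNA, where 21.9% and 25.8% of all tested genes were called. Rtn4r, the Nogo receptor, fell from 86.4 ± 11.2 to 40.8 ± 10.3 CPM in Control-shRNA (-1.08, SE 0.16, adjusted p = 3.13e-05) and from 85.1 ± 8.63 to 32.6 ± 5.82 CPM in Dnmt3a1-shRNA (-1.38, SE 0.16). Omg, a ligand of that receptor made by oligodendrocytes and neurons, rose from 70.1 ± 5.74 to 124 ± 10.5 CPM (0.83, SE 0.07, adjusted p = 9.99e-08) and from 65.1 ± 3.63 to 108 ± 7.15 CPM (0.73, SE 0.07). Rtn4rl2, a homologue of the receptor, rose by 0.75 and 0.59. None of the 8 passed the knockdown comparisons in edgeR, where 5.83% and 5.89% of all tested genes were called. Both bicuculline comparisons use different control libraries, but the knockdown and bicuculline comparisons share groups, so their values are given side by side and were not correlated.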

How the data were processed

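The 9 genes and all marker lists were chosen with earlier results of these data known, so counts over them are descriptions. RNA was extracted from 16 cultures and sequenced on BGISEQ-500. Per the labels and the study's methods, the authors trimmed reads with Trim Galore 0.6.4, quantified them with kallisto on GRCm38.p6 and deposited 1 estimated count per gene, without any scaling. TPM values, also deposited by the authors, are scaled for transcript length and library total. Groups and replicate numbers came from the sample titles.

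Of 55385 identifiers, 55144 matched GENCODE M21 without their version, and 134 of 135 list symbols were found. After rounding, estimated counts went into edgeR 4.0.16 (R 4.3.3): filter on low counts by group, TMM scaling, 1 quasi-likelihood fit over the 4 groups without a block, and Benjamini-Hochberg adjustment over 17222 genes. Genes with an adjusted p below 0.05 and an absolute log2 fold change above 0.5 were called (interaction: adjusted p alone). Sox10 and Mag were compared by an exact permutation test with a prior count of 0.5. The steps were tested on simulated data. Alternatives were DESeq2 1.42.0, voom with limma 3.58.1, other scalings and filters, a replicate block, and leaving out each library.

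Named list genes were, per list and comparison, up to 3 called genes of the largest change with a mean of at least 1 CPM, otherwise the most abundant gene. For Olig1, Mbp and Pdgfra the 5 genes of highest r were taken. Some genes that these rules select are not reported here. Libraries with the same number deviated together with r of 0.107 to 0.166 in the Control-shRNA bicuculline comparison and 0.170 to 0.309 in the baseline knockdown comparison, every pair over 0.1, so numbers were taken to pair libraries there. In the other 2 comparisons the lowest r was 0.0559 and 0.0250, and they were not. Pairing rests on these correlations and not on a label.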

Additional observations from a re-analysis of the deposited data

Results flagged for a closer look

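In 4 of 36 groups of 4 libraries, 1 library stood apart from the rest by Dixon's test. Chance does so in about 1 in 20 groups of continuous values, a rate that does not hold for counts this low. A group with 1 count in 1 library and 0 in the rest always stands apart, so no excess can be read from these groups. For Sox10 these were replicate 2 of Control-shRNA baseline (0.0309 CPM), of Dnmt3a1-shRNA baseline (0.0327 CPM) and of Dnmt3a1-shRNA bicuculline (0.0370 CPM). Each is 1 count, with 0 in the other 3 libraries. For Mag, Control-shRNA bicuculline replicate 3 had 0.137 CPM, or 4 counts, against 0.0351 to 0.0372 CPM, or 1 count each, in the others. None of the 7 genes tested by edgeR stood apart in this way in any group.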

How the results depend on the processing

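Depth was nearly equal between libraries, and low counts limit Mog, Pdgfra, Sox10 and Mag. Mog kept its fall with bicuculline and its call in all 8 other settings with each shRNA, at adjusted p-values up to 0.0351 in Control-shRNA, fits that leave out 1 library included. The number of genes called with bicuculline in Dnmt3a1-shRNA was 2 with the replicate block, which added Pdgfra (0.51, adjusted p = 0.0238), and 0 to 2 when 1 library was left out. It was 0 without Dnmt3a1-shRNA baseline replicate 4 and 2 without Dnmt3a1-shRNA baseline replicate 3. With the knockdown under bicuculline it was 0 to 1 when 1 library was left out. The replicate block changed no other call of the 7 genes tested with it, and the cause of these changes was not tested. Without TMM the median of all tested genes moved to -0.15 and -0.16 with bicuculline, and Cnp in Dnmt3a1-shRNA turned from 0.01 to -0.14. In the interaction across all genes, DESeq2 called 18, and the block and the fit without a filter 3 each, against 0.

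Signs that turned when 1 library was left out were all of changes that were not called. With bicuculline they were Mbp in Control-shRNA (-0.30 to 0.0007) and, in Dnmt3a1-shRNA, Cspg4 (-0.0557 to 0.46) and Cnp (-0.04 to 0.0477). With the knockdown at baseline they were Olig1 (-0.12 to 0.34), Cspg4 (-0.0644 to 0.25), Mog (-0.0776 to 0.36) and Cnp (-0.0375 to 0.0167), and under bicuculline Pdgfra (-0.23 to 0.0689), Cspg4 (-0.24 to 0.40) and Cnp (-0.0033 to 0.22). Interaction values turned for Olig1 (-0.13 to 0.33), Olig2 (-0.11 to 0.17), Pdgfra (-0.0274 to 0.35), Cspg4 (-0.33 to 0.30), Mbp (-0.27 to 0.11) and Mog (-0.11 to 0.32).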
